A study of Mus musculus with 4 samples.

Results

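Mast cell and basophil granule genes were followed in cultured mouse T-cell progenitors. They are the 10 genes Cpa3, Mcpt1, Mcpt4, Mcpt8, Prss34, Prg2, Prg3, Ms4a2, Fcer1a and Hdc, taken by symbol from the 31053 genes of the deposited tables, in which each symbol occurs once. Their counts of unique molecular identifiers (UMIs, 1 per captured transcript) were read in 8797 cells of experiment 1 and 8335 cells of experiment 2. These are the cells with at least 500 genes, under 10% mitochondrial UMIs and a single clear hashtag, of 9967 and 10556 deposited barcodes.

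A hashtag is an antibody-borne oligonucleotide put on 1 culture's cells, so that pooled cells can be sorted out again after sequencing. Bone marrow progenitors of mice were grown on OP9-Dll1, a stromal line that presents a Notch ligand, and IL-7 and Flt3-ligand were supplied at 10 ng/ml. Per the series design, gain of Runx1 used MSCV-Runx1-mCherry against MSCV-empty-mCherry in cells of B6.Bcl2 transgenic mice aged 8 to 10 weeks, sorted as live lineage-negative mCherry+ CD45+ cells on day 4 or 6 of culture. Loss of Runx1 and Runx3 used E42-gRunx1-humanNGFR with E42-gRunx3-mTurquoise, 3 guide pairs per gene, in B6.Cas9;Bcl2 cells. Its control, E42-gControl, targets luciferase, and these cells were sorted as lineage-negative, mTurquoise+, hNGFR+ and CD45+ on day 5 or 8. Vectors were added on day 2 in both designs, and every group carried the Bcl2 transgene. Per the labels, cells had been cultured for 4 to 5 days in experiment 1, and for 4 to 8 days in experiment 2. The labels tie no hashtag to any of these groups, so the 8 hashtags of each experiment are 8 samples of unknown condition, numbered by column, and the numbers do not pair between experiments. No condition is therefore compared with another, no test was run, and the intervals (95%) reflect only how many molecules or cells were counted.

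Mast cells and basophils are granulocytes that carry IgE on the receptor FcεRI and release stored histamine and proteases when antigen crosslinks it. Their granules pack proteases with histamine on serglycin proteoglycan, and the set of proteases differs between connective tissue mast cells, mucosal mast cells and basophils. Both lineages arise from myeloid progenitors under GATA2, and early T-cell progenitors in the thymus still hold some potential for them that fades as the cells commit. Eosinophils, which share granule major basic protein with these cells, are a further granulocyte lineage.

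Genes of the set sit in a few places of the mouse genome (RefSeq coordinates on GRCm38.p6). Mcpt1 (chr14:56017964-56020391), Mcpt4 (chr14:56059744-56062310) and Mcpt8 (chr14:56082163-56085499) lie in the chymase locus, which runs from Cma1 through these genes and Ctsg to the granzyme gene Gzmb. Prg2 (chr2:84980461-84983632) and Prg3 (chr2:84988196-84996559) are neighbours. The rest stand apart, at chr3:20215616-20242209 for Cpa3, chr17:25298394-25300168 for Prss34, chr19:11615517-11623790 for Ms4a2, chr1:173221269-173227232 for Fcer1a and chr2:126593659-126624025 for Hdc. RefSeq promoters were found for 9 of the 10, all but Prg2. Those below are the bases just upstream of 4 genes and outside any exon of theirs: Mcpt1 and Mcpt4 as a closely similar pair, Prss34 as the gene with the widest ratio between hashtags in experiment 2 among those with at least 10 UMIs in the lowest, and Cpa3 as the gene present in most cells. Capitals mark GATA hexamers (AGATAA or AGATAG or TGATAA or TGATAG) and Runx hexamers (TGTGGT or TGCGGT), on either strand. No GATA hexamer overlaps a Runx hexamer in them.
Mcpt1, chr14:56017814-56017963, plus strand: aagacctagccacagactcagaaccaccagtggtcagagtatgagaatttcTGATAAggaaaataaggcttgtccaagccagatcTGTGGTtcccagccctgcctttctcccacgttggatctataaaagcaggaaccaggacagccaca
Mcpt4, chr14:56062311-56062460, minus strand: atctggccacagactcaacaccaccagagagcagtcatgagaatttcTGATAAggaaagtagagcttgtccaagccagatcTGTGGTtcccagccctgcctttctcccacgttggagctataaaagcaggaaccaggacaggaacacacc
Prss34, chr17:25298244-25298393, plus strand: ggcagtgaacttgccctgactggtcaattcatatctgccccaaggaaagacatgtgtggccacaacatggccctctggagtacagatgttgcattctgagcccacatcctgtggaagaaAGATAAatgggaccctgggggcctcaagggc
Cpa3, chr3:20242210-20242331, minus strand: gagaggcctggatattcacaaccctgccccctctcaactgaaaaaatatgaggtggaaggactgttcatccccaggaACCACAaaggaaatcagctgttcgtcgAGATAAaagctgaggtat

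The Mcpt1 and Mcpt4 stretches matched at 110 of 146 bases (75.3%, no gaps), and both hold the GATA and the Runx hexamer at the same spacing. Among such windows of 150 bases, the next most similar pair of the set, Cpa3 and Mcpt4, matched at 41.6% of bases. In the 250 bases before the start that the promoter table uses, 8 of 9 genes of the set have a GATA hexamer and 7 of 9 a Runx hexamer, against 26.5% and 18.6% of 32851 RefSeq promoters. The windows of Mcpt8 and Hdc lie within the gene coordinates given above, not upstream of them, and that of Hdc is 1 of the 8 and that of Mcpt8 1 of the 7. These are letter matches only. How the counting divided reads that fit several chymase genes is not given in the sources used here, so the split among Mcpt1, Mcpt2 and Mcpt4 is uncertain.

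Depth was similar across the libraries. The used cells held 221139979 UMIs in experiment 1 and 232564152 in experiment 2, with medians of 24753 and 26338 UMIs per cell, and hashtags held 691 to 1312 cells. Levels are UMIs of a gene per 1000000 UMIs of the summed cells (CPM). They are not scaled by gene length, so levels are compared within a gene. The cells are labelled as T progenitors of the Kit-high stage. With each cell thinned to 10000 UMIs, Kit was detected in 46.6% and 28.2% of cells in experiments 1 and 2. The early T-cell factor Tcf7 was detected in 61.6% and 47.6%, and Il2ra, a chain of the IL-2 receptor, in 54.9% and 40.1%. Cells with B-lineage genes (13 and 115) and with stromal genes (19 and 221) were also present, and 39 barcodes occur in both libraries.

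Cpa3 (ENSMUSG00000001865) encodes carboxypeptidase A3, a granule protease that trims proteins together with chymases and is also known from early haematopoietic progenitors. In experiment 1 its level was 66.1 CPM in the lowest hashtag (number 2), 188 CPM at the median and 204 CPM in the highest (number 8). Hashtags 1 and 2 stood below the other 6, which lay between 175 and 204 CPM. In experiment 2 it was 34.8 CPM in the lowest (number 6), 115.6 CPM at the median and 225 CPM in the highest (number 7). There, hashtags 4 and 7 lay above 200 CPM and hashtags 1 and 6 below 50 CPM. The highest level was 3.09 times the lowest in experiment 1 (interval 2.93 to 3.26) and 6.45 times in experiment 2 (6.02 to 6.93).

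Cpa3 was the widespread gene of the set. At 10000 UMIs per cell, 52.6% of cells had a Cpa3 UMI in experiment 1 and 40.8% in experiment 2 (65.3% and 51.8% before thinning). In cells with stromal genes, which should lack it, the shares were 10.5% of 19 and 15.5% of 219. Cells with B-lineage genes had shares of 27.3% of 11 and 21.3% (13.4 to 31.3%) of 89. Whether free RNA gave these UMIs was not tested. Across hashtags the thinned share ran from 34.6% to 69.7% in experiment 1 and from 14.5% to 69.05% in experiment 2. Hashtags 6 (14.5%) and 1 (22.7%) of the latter were not above the B-lineage background.

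Mcpt8 (ENSMUSG00000022157) encodes mast cell protease 8, the serine protease that marks mouse basophils. Its level in experiment 1 was 20.3 CPM in the lowest hashtag (number 3), 53.5 CPM at the median and 83.3 CPM in the highest (number 5). In experiment 2 it was 13.2 CPM in the lowest (number 8), 56.9 CPM at the median and 247 CPM in the highest (number 4), with hashtag 5 next at 151.5 CPM. The highest-to-lowest ratio was 4.11 (3.74 to 4.52) in experiment 1 and 18.7 (16.6 to 21.1) in experiment 2. In experiment 1 it was 2.13 without hashtag 3 and 2.38 without the 5 cells of each hashtag richest in the set. In experiment 2 it was 11.4 without hashtag 4, 10.6 without hashtag 8 and 30.6 when each cell counted equally. Outside the granule-high cells, which are defined below by UMIs of the set, Mcpt8 included, the ratio was 4.60 in experiment 1 and 3.77 in experiment 2. In those remaining cells, hashtag 4 of experiment 2 stood at 11.9 CPM, between 6.96 CPM in hashtag 6 and 26.3 CPM in hashtag 5. Hashtag 7 of experiment 1 was then the lowest of its experiment at 9.82 CPM, and hashtag 5 the highest at 45.2 CPM.

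Mcpt8 was found at 2 scales. A few cells held very many, up to 647 UMIs in experiment 1 and 788 in experiment 2. Many more held 1 or 2 UMIs, 1989 and 1430 cells, and these were spread unevenly over hashtags that shared a library. At 10000 UMIs per cell the share of cells with a Mcpt8 UMI in experiment 1 was highest in hashtag 5 (28.8%, 25.7 to 32.0%) and hashtag 6 (27.5%, 24.8 to 30.2%). It was lowest in hashtag 7 (7.71%, 6.12 to 9.55%) and hashtag 8 (10.7%, 8.40 to 13.4%), although hashtag 7 had a summed level of 77.0 CPM. The background in experiment 1 was 10.5% (1.30 to 33.1%) of 19 cells with stromal genes and 9.09% (0.230 to 41.3%) of 11 with B-lineage genes, so the shares of hashtags 7 and 8 were not above it, and these few cells leave it poorly known. In those last hashtags the 5 richest cells held 72.5% and 72.3% of the Mcpt8 UMIs, against 49.1% and 48.7% in hashtags 5 and 6. In experiment 2 the thinned share was 12.5% over all cells, against 11.2% (5.52 to 19.7%) of 89 cells with B-lineage genes and 3.65% (1.59 to 7.07%) of 219 with stromal genes, so a single Mcpt8 UMI did not set a cell apart from the B-lineage background there.

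Prss34 (ENSMUSG00000056399) encodes mast cell protease 11, a tryptase-like protease made by basophils. In experiment 1 it had no UMI in hashtags 3 and 8, which allows up to 0.101 and 0.207 CPM, a median of 5.95 CPM and 21.9 CPM in the highest, hashtag 5. In experiment 2 its level was 0.718 CPM in the lowest hashtag (number 8), 15.7 CPM at the median and 355 CPM in the highest (number 4). Hashtag 4 stood far above hashtag 5, the next at 93.3 CPM. The ratio of highest to lowest in experiment 2 was 495 (305 to 866), and it was 129.8 without hashtag 4.

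Prss34 was carried by few cells. In hashtag 4 of experiment 2, 24 of 1170 cells had at least 50 UMIs, and in hashtags 7 and 8 no cell had more than 2. Cells with 1 or 2 Prss34 UMIs numbered 15 to 32 in every hashtag of experiment 2. Before thinning, 4.52% of cells with stromal genes (median 49920 UMIs) had a Prss34 UMI, against 2.71% of all cells (median 26338). Such low counts therefore did not set a cell apart from cells with stromal genes, and whether they are free RNA was not tested. Outside the cells in which the set made up at least 0.2% of UMIs, the summed level lay between 0.670 and 1.05 CPM in all 8 hashtags, a ratio of 1.57. That cut counts Prss34 itself, so it takes out the cells rich in Prss34 by construction. In experiment 1, 28 cells had any Prss34 UMI, and 12 had at least 10. Some summed markers were also highest in hashtag 4 of experiment 2. Other mast cell and basophil genes (10 genes, Tpsab1 and Tpsb2 at 0) stood at 49.5 CPM against 8.84 to 25.9 CPM in the others. Committed T-lineage genes (7 genes, none at 0) stood at 1486 CPM against 143 to 1372 CPM. Erythroid or megakaryocyte genes (6 genes, none at 0) stood at 72.8 CPM against 7.26 to 62.8 CPM. Over the other hashtags these lists did not all follow Prss34. In hashtag 5, next for Prss34, they stood at 21.6, 309 and 25.9 CPM in that order. Hashtag 7 had 1372 CPM of committed T-lineage genes and 0.892 CPM of Prss34. The part of these lists in the Prss34 level was not tested.

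**Figure D1:**
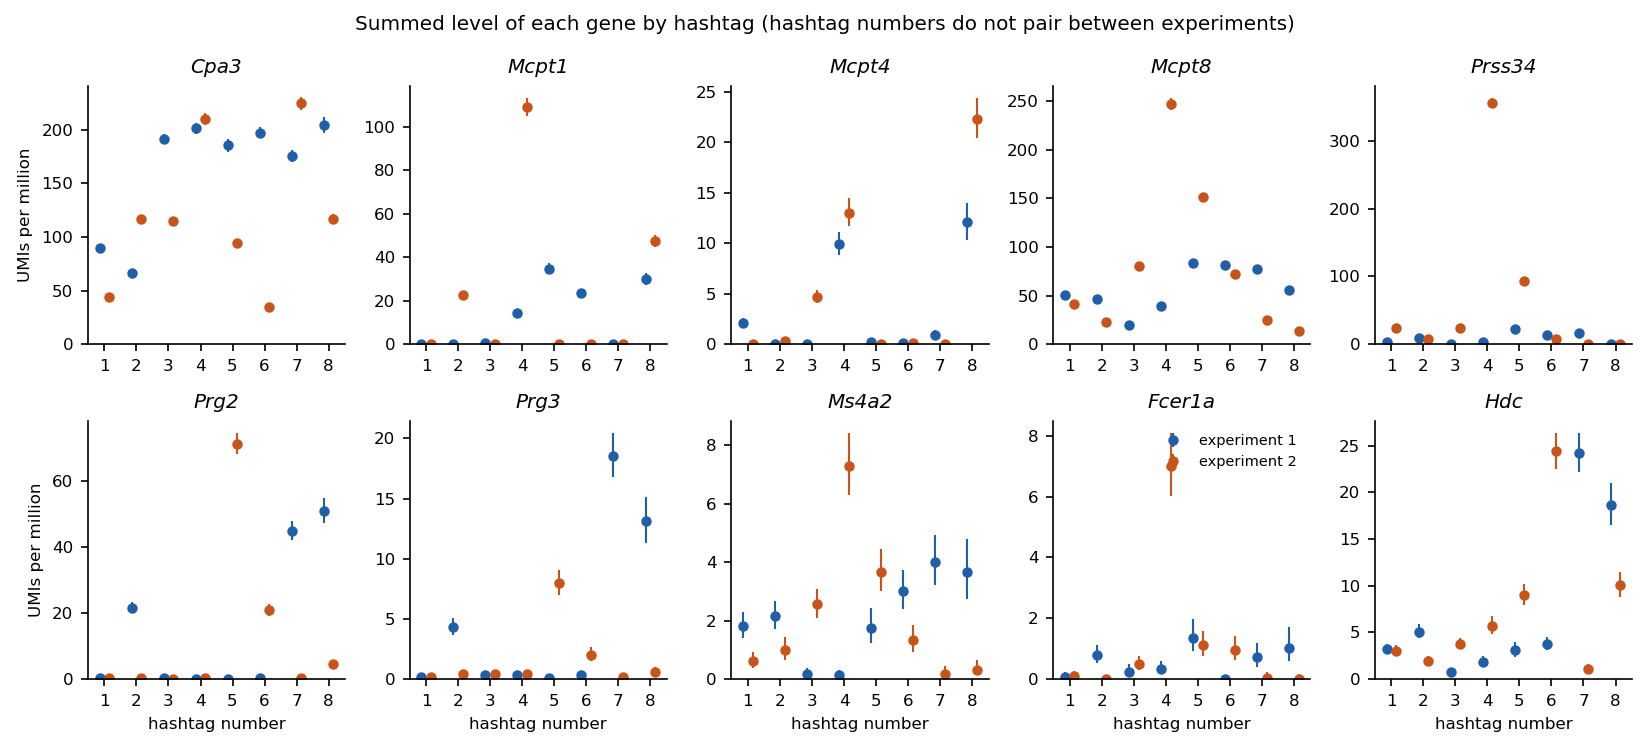
Level of each of the 10 genes in CPM (vertical axes, linear, each from 0) by hashtag number (horizontal axes), in experiment 1 (blue) and experiment 2 (orange), with exact 95% Poisson intervals as bars. Cpa3 lies between 34.8 and 225 in every hashtag, while Prss34 and Fcer1a of experiment 2 rest on hashtag 4, at 355 and 7.00.

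Mcpt1 (ENSMUSG00000022227) and Mcpt4 (ENSMUSG00000061068) encode chymases, which mark mucosal and connective tissue mast cells respectively. Mcpt1 had 0.0263 CPM in the lowest, 7.38 CPM at the median and 34.8 CPM in the highest hashtag of experiment 1. In experiment 2 these were 0.112, 0.304 and 109 CPM. Single cells made most of these sums: in hashtag 5 of experiment 1, 706 of 712 Mcpt1 UMIs came from 1 cell, and in hashtag 8 of experiment 2, 1049 of 1055 did. Hashtag 4 of experiment 2 was the exception, with 9 cells of at least 10 UMIs and a level of 71.1 CPM without its richest cell.

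Mcpt4 had no UMI in hashtag 3 of experiment 1, a median of 0.573 CPM and 12.1 CPM in the highest, hashtag 8. In experiment 2 it had none in hashtag 7, a median of 0.197 CPM and 22.3 CPM in the highest, hashtag 8. All 497 UMIs of that highest hashtag came from 1 cell. Over both experiments only 6 and 5 cells had at least 10 Mcpt4 UMIs, so its hashtag levels describe single cells.

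Prg2 (ENSMUSG00000027073) and Prg3 (ENSMUSG00000027072) encode major basic protein and its homologue, which fill eosinophil granules and are also found in basophils. Prg2 had a lowest level of 0.0488 CPM, a median of 0.282 CPM and a highest of 51.0 CPM in experiment 1, where hashtags 2, 7 and 8 lay above 20 CPM and the other 5 below 0.4 CPM. In experiment 2 these were 0.141, 0.381 and 71.3 CPM, the highest in hashtag 5, where 1695 of 2038 UMIs came from 1 cell. Prg3 followed the same hashtags, with highest levels of 18.6 CPM in hashtag 7 of experiment 1 and 7.98 CPM in hashtag 5 of experiment 2, against medians of 0.353 and 0.423 CPM and lowest levels of 0.0488 and 0.170 CPM. Cells with at least 10 Prg2 UMIs numbered 5 in each experiment.

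Ms4a2 (ENSMUSG00000024680) and Fcer1a (ENSMUSG00000005339) encode the β and α chains of FcεRI. Ms4a2 ranged from 0.128 CPM over a median of 1.98 CPM to 4.01 CPM (hashtag 7) in experiment 1, and from 0.170 CPM over 1.17 CPM to 7.31 CPM (hashtag 4) in experiment 2. Fcer1a had no UMI in hashtag 6 of experiment 1 and in hashtags 2 and 8 of experiment 2, medians of 0.520 and 0.290 CPM, and highest levels of 1.37 CPM (hashtag 5) and 7.00 CPM (hashtag 4). Hashtag 4 of experiment 2 was thus the highest for both receptor chains, and for Mcpt1, Mcpt8 and Prss34. No cell had 50 UMIs of either chain, so both are read from few molecules.

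Hdc (ENSMUSG00000027360) encodes histidine decarboxylase, the enzyme that makes histamine. In experiment 1 its level was 0.741 CPM in the lowest hashtag (number 3), 3.47 CPM at the median and 24.2 CPM in the highest (number 7), with hashtag 8 next at 18.7 CPM and the other 6 at or below 5.08 CPM. In experiment 2 it was 1.06 CPM in the lowest (number 7), 4.75 CPM at the median and 24.4 CPM in the highest (number 6), with hashtag 8 next at 10.1 CPM. The ratios were 32.7 (21.4 to 52.6) and 23.0 (15.4 to 35.7). They were 12.9 without hashtag 3 of experiment 1, and 9.47 and 12.8 without hashtags 6 and 7 of experiment 2.

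Hdc was not highest where the basophil proteases were. Hashtag 4 of experiment 2, highest for Mcpt8 and Prss34, had 5.74 CPM of Hdc, and hashtag 6, highest for Hdc, had 72.4 CPM of Mcpt8 and 7.45 CPM of Prss34. In hashtag 6, 152 cells had an Hdc UMI, 58 of them at least 3. After thinning, 8.64% (6.86 to 10.7%) of its cells had one, against 2.74% (1.01 to 5.87%) of the cells with stromal genes in that library. Over all cells of experiment 2 the share was 3.15%, which is not above that background. Several summed markers of other cell types were also highest in hashtag 6 of experiment 2. Neutrophil genes (6 genes, none at 0 in the experiment) stood at 11052 CPM against 58.5 to 7215 CPM in the others. Granulocyte progenitor genes (5 genes, none at 0) stood at 1487 CPM against 143 to 1034 CPM. Monocyte or macrophage genes (6 genes, none at 0) stood at 553 CPM against 61.7 to 502.6 CPM. Multipotent progenitor genes (6 genes, none at 0) stood at 658 CPM against 154 to 531 CPM. In hashtag 8, next for Hdc, granulocyte progenitor genes stood at 397 CPM, below their median of 593 CPM, while the other lists just given lay above theirs. In hashtags 7 and 8 of experiment 1, where Hdc was highest, monocyte or macrophage genes stood at 175 and 210.4 CPM against 73.4 to 171 CPM in the others, and multipotent progenitor genes at 604 and 609.6 CPM against 333 to 552 CPM. Innate lymphoid and other mast cell and basophil genes were also highest there. Neutrophil genes were highest in hashtag 2 (602 CPM) and stood at 40.6 and 177 CPM in hashtags 7 and 8. Granulocyte progenitor genes were also highest in hashtag 2 (1002 CPM). They stood at 192 CPM in hashtag 7, the lowest of the experiment, and at 434 CPM in hashtag 8. The part of these lists in the Hdc levels was not tested.

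With at least 10 UMIs required in the lowest hashtag, 2 of 3 genes of the set in experiment 1, Mcpt8 and Hdc, differed 4-fold or more between hashtags, where 5.47% of 11104 genes did. In experiment 2, 4 of 4 did (Cpa3, Mcpt8, Prss34 and Hdc), against 10.6% of 11552 genes. The median ratio was 4.11 over the 3 genes and 1.38 over all genes in experiment 1, and 20.8 against 1.48 in experiment 2. The other 7 and 6 genes had too few UMIs in some hashtag for a ratio.

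The genes differed in how their UMIs were spread over cells. The 1% of cells richest in Cpa3 held 10.8% of its UMIs in experiment 1 and 11.8% in experiment 2, close to the median gene at 7.04% and 8.39%. For Mcpt8 the richest 1% of cells held 56.3% and 80.8%, and for Hdc 72.6% and 54.8%. For the other 7 genes this share was between 99.0% and 100%. Among genes with at least 500 UMIs, 7 of 8 of the set had at least 50% of their UMIs in 1% of cells in each experiment, against 0.743% of 9958 genes in experiment 1 and 3.74% of 10368 in experiment 2. Cpa3 was the one below that line both times. The richest 1% were 88 and 84 cells, so a gene found in fewer cells stands at 100% by construction. Of the genes counted here, this held in experiment 1 for Mcpt1 (37 cells), Mcpt4 (21), Prss34 (28), Prg2 (70) and Prg3 (59). In experiment 2 it held for Mcpt1 (73 cells), Mcpt4 (21) and Ms4a2 (78). It took 1028 cells to hold 50% of the Cpa3 UMIs in experiment 1 and 769 in experiment 2, against 33 and 21 for Mcpt8 and 3 and 15 for Prss34.

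**Figure D2:**
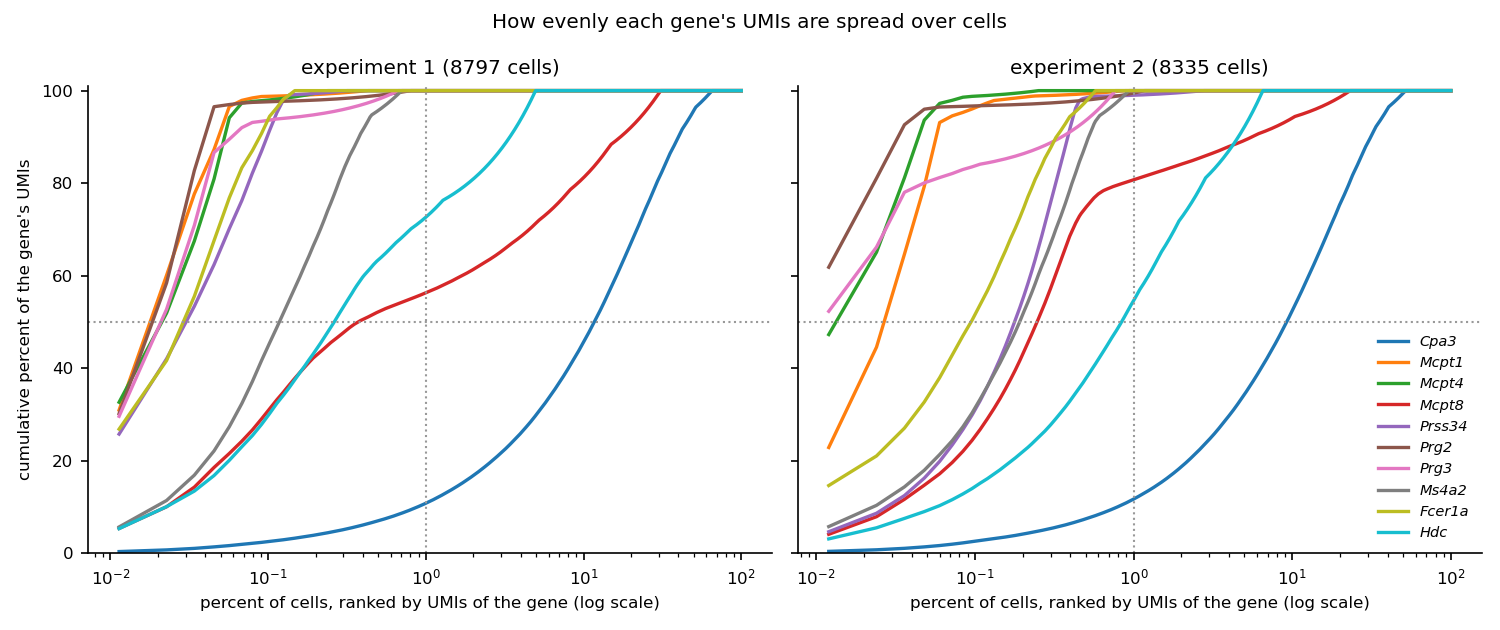
Cumulative percent of each gene's UMIs (vertical axis) against the percent of cells ranked by UMIs of that gene (horizontal axis, log scale), in experiment 1 (left, 8797 cells) and experiment 2 (right, 8335 cells). Dotted lines mark 1% of cells and 50% of UMIs. Cpa3 reaches 10.8% and 11.8% at the dotted vertical line, while Mcpt1, Mcpt4, Prss34, Prg2, Prg3, Ms4a2 and Fcer1a have reached at least 99.0%.

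Cells rich in the whole set were taken as those in which the 10 genes made up at least 0.2% of UMIs, called granule-high below. This is a range of a score, not a cell type. There were 73 in experiment 1 (0.830% of cells, 0.651 to 1.04%) and 72 in experiment 2 (0.864%, 0.676 to 1.09%). Cells between 0.1% and 0.5% numbered 177 and 131, the cells just inside stood at 0.201% in both experiments and those just outside at 0.195% and 0.199%. Granule-high cells were shallower than the rest, with medians of 17462 against 24796 UMIs in experiment 1 and 16204 against 26416 in experiment 2. They held 69.1% and 86.5% of all UMIs of the 9 genes other than Cpa3.

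Granule-high cells were unevenly divided among hashtags. In experiment 1, hashtags 7 and 8 held 27 and 18 of the 73, 2.25% (1.49 to 3.26%) and 2.60% (1.55 to 4.09%) of their cells, against 0.169 to 0.791% in the other 6. In experiment 2, hashtag 4 held 34 of the 72, 2.91% (2.02 to 4.04%) of its cells, and hashtag 5 held 13. Hashtag 7 of experiment 2 had none among 1017 cells, which allows a share of up to 0.295%, although its Cpa3 level was the highest of the experiment. Hashtags 7 of experiment 1 and 4 of experiment 2 also had the lowest median UMIs per cell of their experiments, 18057.5 and 19543, and the part of depth in these shares was not tested. In hashtags 7 and 8 of experiment 1, 4 marker lists were also highest: the monocyte and multipotent progenitor lists given with Hdc, other mast cell and basophil genes (10 genes, Tpsab1 and Tpsb2 at 0), at 56.0 and 48.6 CPM against 16.1 to 26.4 CPM, and innate lymphoid genes (6 genes, none at 0), at 156.6 and 129.8 CPM against 40.3 to 86.6 CPM.

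Granule-high cells were grouped by the gene with most UMIs in each, so that gene is high in its group by choice. At least 10 UMIs of 2 or more of the 10 genes were held by 40 of the 73 cells and 58 of the 72. In experiment 1, Cpa3 led in 37 cells, Mcpt8 in 23, Mcpt1 in 5, Prg2 in 4, Hdc in 3 and Mcpt4 in 1. In experiment 2, Mcpt8 led in 25, Prss34 in 23, Cpa3 in 9, Mcpt1 in 7, Prg2 in 5, Hdc in 2 and Mcpt4 in 1. Of the 23 cells led by Prss34, 21 were in hashtag 4. Of the 37 led by Cpa3 in experiment 1, 27 were in hashtags 7 and 8, with 15 and 12. No cell was led by Prg3, Ms4a2 or Fcer1a.

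Several proteases were not found together. The 8 granule-high cells of each experiment with at least 10 UMIs of Mcpt1 or Mcpt4 had 0 UMIs of Prss34 and 0 of Prg2. The 12 and 43 cells with at least 10 Prss34 UMIs had 0 UMIs of Mcpt1 and Mcpt4 in experiment 1 and 0 to 5 in experiment 2. These same Prss34 cells held 51 to 647 Mcpt8 UMIs each in experiment 1 and 2 to 788 in experiment 2. The 7 and 5 cells with at least 10 UMIs of Prg2 or Prg3 had 0 UMIs of Mcpt1 and Mcpt4, and 0 to 135 and 0 to 13 of Prss34.

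**Figure D3:**
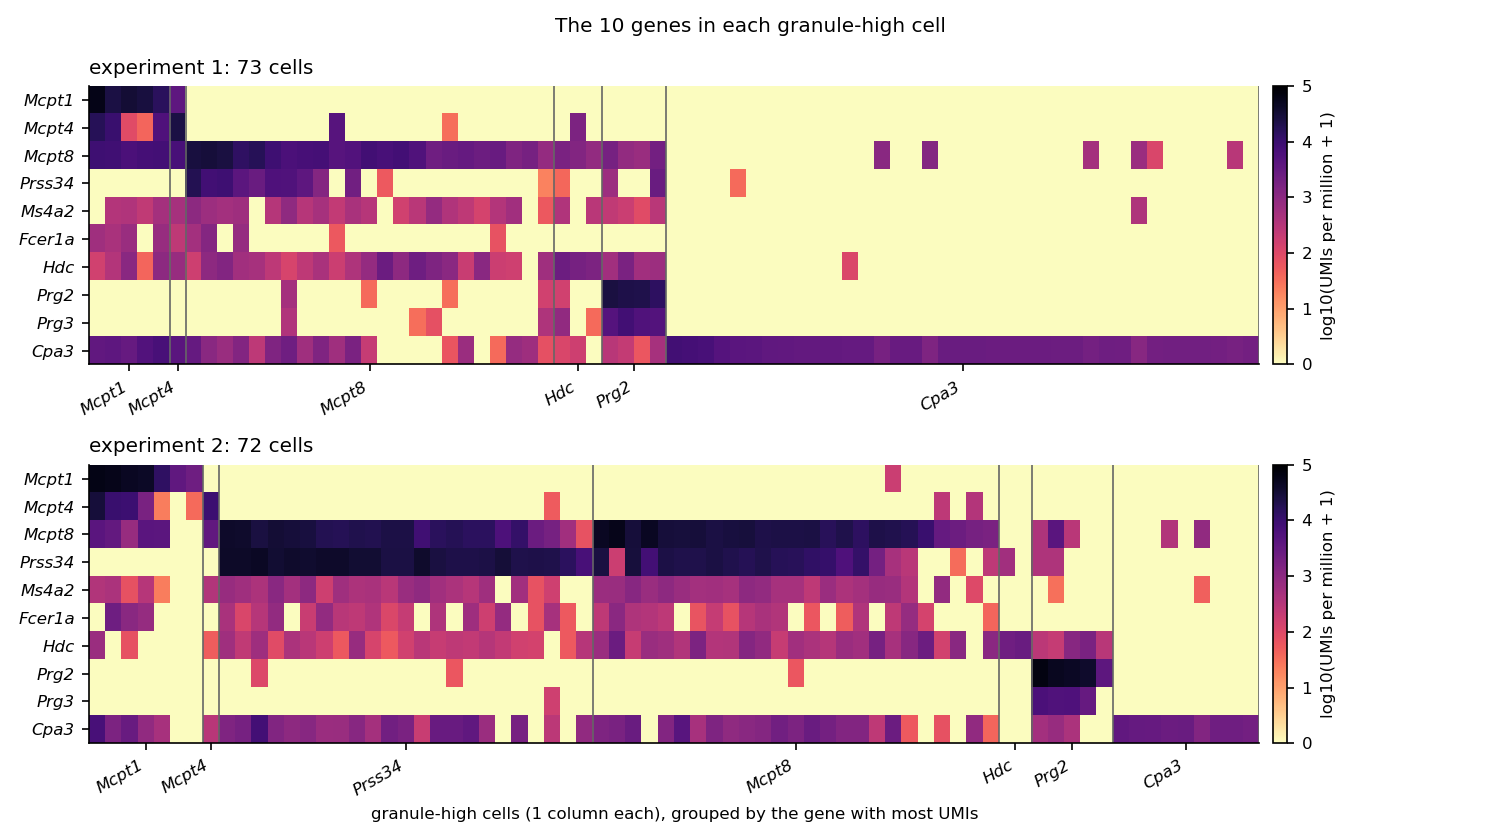
The 10 genes (rows) in each granule-high cell (columns) of experiment 1 (top, 73 cells) and experiment 2 (bottom, 72 cells), as log10(CPM + 1), with cells grouped by the gene with most UMIs. Mcpt1 and Mcpt4 fill other cells than Prss34, Mcpt8 is shared by both kinds, and the 37 and 9 cells led by Cpa3 are nearly empty elsewhere.

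Of the cells led by Cpa3, 33 of 37 and 8 of 9 had under 10 UMIs of the other 9 genes together. Genes outside the set also had other levels in these cells than in the remaining granule-high cells. The committed T-lineage list (Bcl11b, Cd3g, Cd3d, Cd3e, Ptcra, Tcf7 and Il2ra) had a median over cells of 522 and 1238 CPM in cells led by Cpa3, and of 0 CPM in cells led by Mcpt1, Mcpt8, Prg2 or Prss34, against 367 and 188 CPM outside the granule-high cells. Il2ra summed to 459 and 488 CPM in cells led by Cpa3 and to between 0 and 42.8 CPM in those led by Mcpt1, Mcpt8, Prg2 or Prss34. Gzma, a granzyme, summed to 2292 and 4015 CPM in cells led by Cpa3, against 1242 and 1152 CPM outside the granule-high cells. In cells led by Mcpt1 in experiment 2 it summed to 1928 CPM. A Gzma UMI was found in 18 of 37 and 9 of 9 cells led by Cpa3, and in 5990 of 8724 and 5312 of 8263 outside. Other mast cell and basophil genes summed to 176 and 218 CPM in cells led by Cpa3, against 21.3 and 16.0 CPM outside. Monocyte or macrophage genes summed to 358 and 128 CPM in them, against 135 and 310 CPM outside. The innate lymphoid list (6 genes such as Zbtb16 and Id2) had medians of 154 and 274 CPM in cells led by Cpa3, 1288 and 216 CPM in those led by Mcpt1 and 1133 CPM in the 3 led by Hdc in experiment 1, against 36.3 and 38.3 CPM outside. It was highest over whole hashtags in hashtags 7 and 8 of experiment 1, which held 27 of the 37 cells led by Cpa3. Il2ra, Gzma, Kit, Cma1 and Cd200r3 are named here after their values were seen.

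The cells led by Mcpt8, Prss34 or Prg2 carried genes of granulocyte progenitors instead. Their summed level of Elane, Mpo, Prtn3, Ctsg and Ms4a3 lay between 3852 and 6722 CPM, against 463 and 681 CPM outside the granule-high cells. Ctsg alone gave 2511 of 3939 and 4546 of 6199 CPM in cells led by Mcpt8. It gave 3216 CPM in those led by Prss34, 2850 and 1852 CPM in those led by Prg2, and 126 and 145 CPM outside. The 5 genes summed to 993 CPM, all of it Ctsg, and 175 CPM in cells led by Mcpt1. In the 3 cells led by Hdc in experiment 1 they summed to 1402 CPM. Medians over cells were 2001 CPM in experiment 1 and 6558 CPM in experiment 2 for cells led by Mcpt8, 5688 CPM for those led by Prss34, and 0 CPM for those led by Cpa3 in both experiments. In the 4 and 5 cells led by Prg2, Epx, the eosinophil peroxidase, reached 702 and 889 CPM, and it had 0 to 2 UMIs in the cells led by Cpa3, Mcpt1, Mcpt8 or Prss34. In the 5 and 7 cells led by Mcpt1, Mcpt2, the second mucosal mast cell chymase, reached 340 and 5291 CPM, against at most 8.80 CPM in cells led by Cpa3, Mcpt8, Prg2 or Prss34. Kit, the stem cell factor receptor that mast cells keep, stood at 444 and 143 CPM in cells led by Mcpt1 and had no UMI in the 23 cells led by Prss34.

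Other genes of mast cells, basophils and eosinophils were examined in 8 lists with 59 genes in all. Granule-high cells were chosen by the UMIs of the set, so these genes were not used by the choice. Both sides were pooled over hashtags, among which granule-high cells were unevenly divided. The ratios can therefore mix differences between cells with differences between hashtags, and none was taken within a hashtag. With at least 10 UMIs on both sides, 2.37% of 8538 genes in experiment 1 and 3.24% of 7588 in experiment 2 were at least 4-fold higher in granule-high cells, and the median ratio over all genes was 1.003 and 0.981. Genes with few UMIs elsewhere pass that minimum only where they are high in granule-high cells, so counts are read only for lists in which every gene passed. All 5 growth factor receptors passed, and 3 and 4 of them reached 4-fold, with median ratios of 12.5 and 9.48. All 6 IgE receptor and signalling genes passed, and 0 and 1 of them reached 4-fold, with median ratios of 1.35 and 1.79. All 10 transcription factors passed in experiment 1, where 4 reached 4-fold, with a median ratio of 3.20, and 9 passed in experiment 2. For the other lists, 5 and 6 of 8 basophil genes, 6 and 6 of 8 genes of histamine, lipid mediators and granule matrix, 2 and 1 of 7 eosinophil genes, 1 and 1 of 7 mast cell proteases and 2 and 2 of 8 chymase-locus genes passed, and single genes are described below.

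Gata2, the transcription factor needed by mast cell and basophil progenitors, was at 170.4 CPM in granule-high cells against 2.42 CPM in all others in experiment 1, a ratio of 70.5 (60.5 to 81.9), and at 302 against 2.01 CPM in experiment 2, a ratio of 150.1 (130.5 to 172.6). By leading gene it summed to 470 and 214 CPM in cells led by Mcpt1, 267 and 293 CPM in those led by Mcpt8, 478 CPM in those led by Prss34, and 30.3 and 97.6 CPM in those led by Cpa3. Only 3 of 37 and 1 of 9 cells led by Cpa3 had a Gata2 UMI, so those sums rest on few cells. It was found in 5 of 5 and 7 of 7 cells led by Mcpt1, 22 of 23 and 23 of 25 led by Mcpt8, and 23 of 23 led by Prss34. Runx1, the factor altered in part of the cultures, was 2.66 times (2.40 to 2.94) and 1.98 times (1.68 to 2.32) as high in granule-high cells. Its counts do not separate the mouse gene from a vector, and over whole hashtags it ranged from 38.2 to 241 CPM in experiment 1.

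Cyp11a1, a steroid-making enzyme found in basophils and mast cells, was at 229 against 5.22 CPM and at 454 against 3.58 CPM. Csf2rb, the β chain shared by the receptors for IL-3, IL-5 and GM-CSF, was at 216 against 17.3 CPM and at 205 against 21.6 CPM. Fcer1g, the shared γ chain of FcεRI, was widely present outside these cells too, at 314 and 325 CPM, and was 1.95 times (1.83 to 2.08) and 5.54 times (5.31 to 5.78) as high inside, at 613 and 1799 CPM. Over whole hashtags Fcer1g ranged from 212 to 475 CPM and from 229 to 505 CPM. Lat2, an adaptor of mast cell signalling, was 1.32 and 2.43 times as high, at 131 and 222 CPM. Its range over whole hashtags was 81.7 to 113 CPM and 69.2 to 115 CPM.

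Srgn, the core protein of the granule proteoglycan, was 3.22 times (3.11 to 3.33) and 3.72 times (3.58 to 3.85) as high in granule-high cells, and every one of them had a Srgn UMI. Alox5ap, which serves leukotriene synthesis, was 3.95 and 5.42 times as high. Next to Mcpt8 in the genome, Ctsg, the protease cathepsin G, was at 1484 against 126 CPM and at 2886 against 145 CPM, and Gzmb, granzyme B, at 829 against 114 CPM and at 1916 against 128 CPM. Of the other locus genes, Gzmc had 1 and 2 UMIs in granule-high cells although it reached 453 CPM in a hashtag of experiment 2. The tryptase genes Tpsab1 and Tpsb2, which connective tissue mast cells use, and Mcpt9 had no UMI in any used cell, and Cma1, a connective tissue chymase, had 77 UMIs in granule-high cells against 2 outside in experiment 1 and 89 against 1 in experiment 2. These last 4 and Gzmc are named after their values were seen.

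**Figure D4:**
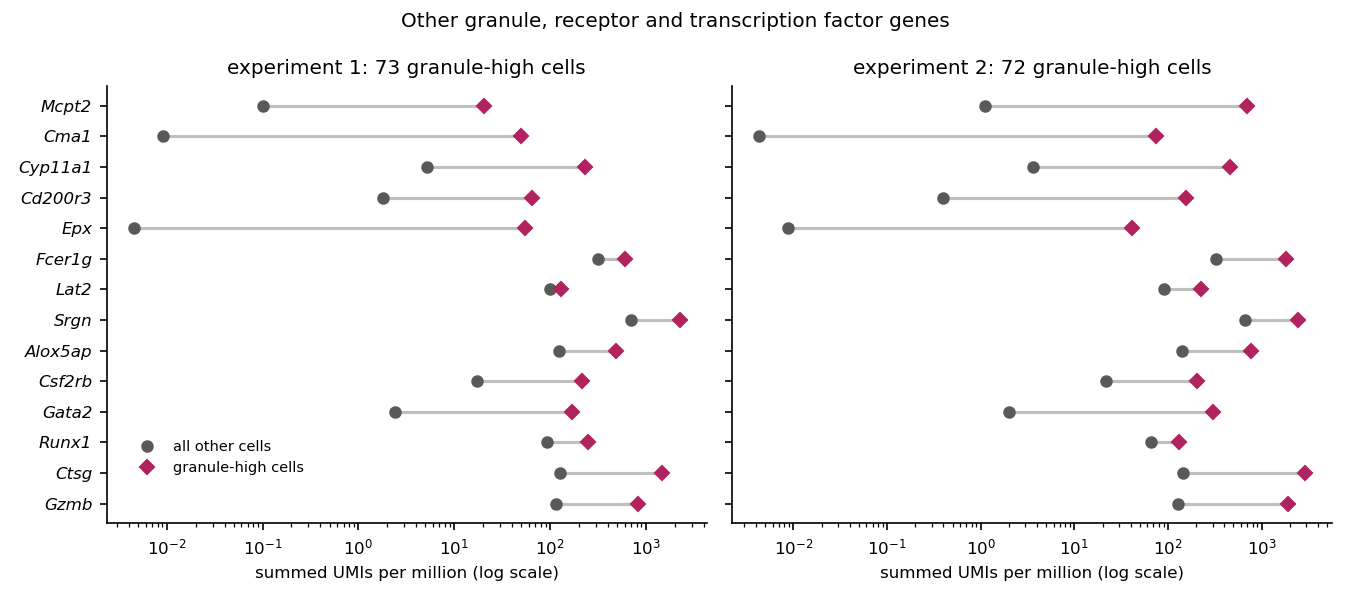
Summed level in CPM (horizontal axis, log scale) of 14 genes outside the set, in granule-high cells (diamonds) and in all other cells (circles), for experiment 1 (left) and experiment 2 (right). Gata2 moves from 2.42 to 170.4 and from 2.01 to 302, while Fcer1g and Lat2 lie closer together.

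Cpa3 was then followed across 16 genes of T-cell, progenitor and granulocyte stages, a list put together after the data were seen. Cells were thinned to 10000 UMIs and divided by whether they held a UMI of the stage gene. Mean Cpa3 was 2.33 UMIs per cell with Il2ra and 0.948 without in experiment 1, and 2.17 against 0.757 in experiment 2, ratios of 2.45 and 2.87. The cells with Il2ra had the higher mean in 8 of 8 hashtags of each experiment, with ratios per hashtag from 1.64 to 3.41 and from 1.12 to 10.96. Tcf7 gave 1.83 and 2.95, and Bcl11b, the factor of T-cell commitment, gave 1.72 and 2.31, also in 8 of 8 hashtags each time. Cd3g gave 1.59 and 1.87, in 6 of 8 hashtags each time, and Gzmb 1.36 and 1.77, in 7 and 8. Gata2 gave 1.87 and 3.95, in 6 and 8 of 8 hashtags, the highest ratio of the 16 genes in experiment 2. The share of cells with a Cpa3 UMI was 45.3% with Gata2 against 52.8% without in experiment 1, and 50% against 40.7% in experiment 2.

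Cpa3 was lower in cells with genes of multipotent progenitors. With Lmo2, a progenitor factor, the mean was 0.643 against 2.11 UMIs per cell in experiment 1 and 0.429 against 1.75 in experiment 2, ratios of 0.304 and 0.244, and 0 of 8 hashtags had the higher mean with Lmo2. Mef2c (0.394 and 0.236) and the cytokine receptor gene Flt3 (0.221 and 0.268) followed the same pattern with 0 of 8 hashtags. Bcl11a gave 0.625 and 0.470, also in 0 of 8 hashtags, and Cd34 0.614 and 0.427, in 2 and 0. The granulocyte progenitor genes varied. Ctsg gave 0.657 and 0.876, in 0 and 3 of 8 hashtags, Elane 0.281 and 0.514, in 0 and 2, and Mpo 0.734 and 1.16, in 2 and 3. Kit itself separated Cpa3 little, with ratios of 1.21 and 1.28, although in 8 of 8 hashtags the cells with Kit had the higher mean. Runx1 gave ratios of 1.09 and 1.07, in 7 and 6 of 8 hashtags. In the cells with committed T-lineage genes, 1123 and 1630 after thinning, 78.5% and 68.7% had a Cpa3 UMI.

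**Figure D5:**
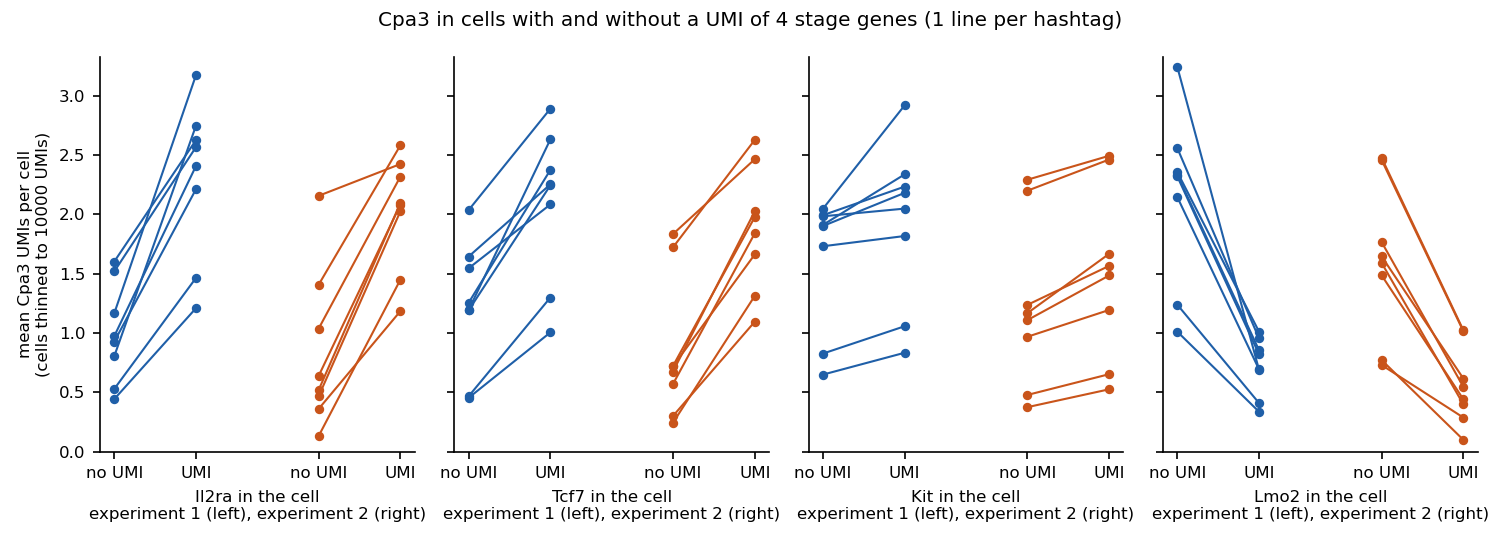
Mean Cpa3 UMIs per cell, with cells thinned to 10000 UMIs (vertical axis), in cells without and with a UMI of Il2ra, Tcf7, Kit or Lmo2, 1 line per hashtag, experiment 1 in blue on the left of each panel and experiment 2 in orange on the right. All 8 lines of each experiment go up for Il2ra, Tcf7 and Kit and down for Lmo2.

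For Hdc the ratios lay on the other side of 1 from those of Cpa3 for Il2ra, Tcf7 and Lmo2, and on the same side for Mef2c and Flt3. Its mean in cells with Il2ra was 0.157 and 0.160 times that in cells without, and with Tcf7 it was 0.0945 and 0.154 times, with 0 of 8 hashtags higher for either gene in each experiment. With Lmo2 it was 1.51 and 2.16 times, in 5 and 6 of 8 hashtags. With Mef2c (0.377 and 0.369) and Flt3 (0.290 and 0.447) its ratios lay below 1, as those of Cpa3 did. The share of cells with an Hdc UMI did not always follow. With Mef2c it was 2.62% against 2.32% without in experiment 1, and 2.36% against 3.80% in experiment 2. With Flt3, found in only 229 and 320 cells, it was 1.75% against 2.48% and 3.125% against 3.15%. For Mcpt8, mean and share differed. The mean in cells with Il2ra was 0.544 and 0.165 times that in cells without, while a Mcpt8 UMI was found in 23.0% of cells with Il2ra against 11.8% without in experiment 1, and in 17.7% against 9.005% in experiment 2. With Ctsg, mean Mcpt8 was 6.25 and 20.9 times as high and mean Hdc 5.87 and 3.84 times, in 8 of 8 hashtags for Mcpt8 and in 8 and 7 of 8 for Hdc. With Bcl11b, mean Mcpt8 was 0.318 and 0.0993 times as high, in 0 of 8 hashtags of each experiment. Granule-high cells are part of these means.

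Correlations of log2 levels across the 8797 and 8335 cells, which share a library and its depth range, describe the same pairs. Among genes of the set, r was 0.706 and 0.677 for Mcpt1 with Mcpt4, 0.896 and 0.807 for Prg2 with Prg3, 0.418 and 0.747 for Prss34 with Mcpt8, and 0.595 and 0.829 for Prss34 with Ms4a2. For Mcpt1 with Prss34 it was near 0 in both. Most of these rest on the few cells that hold the genes. Of 9819 genes outside the set, those most like Cpa3 in both experiments were Gzma (0.435 and 0.538), Crip1 (0.408 and 0.546), Fut8 (0.365 and 0.456), Ifitm2 (0.370 and 0.365) and Dpp4 (0.365 and 0.386). Mcpt8 was most like Ctsg (0.301 and 0.374) and Prss34 most like Gata2 (0.310 and 0.682). Hdc was most like Gata2, Nucb2, Cyp11a1, Cebpe and Anxa1, with the lower r of each between 0.309 and 0.373. For Mcpt1, Mcpt4 and Prg2 no gene reached 0.3 in both experiments.

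Between the experiments, which differ in culture days, library and mix of cultures, so that these cannot be told apart, 2 of the 10 genes reached a 2-fold higher level in the second, against 8.89% of 14693 genes. Prss34 was at 61.3 against 7.84 CPM, a ratio of 7.82 (7.44 to 8.22), and Fcer1a at 1.14 against 0.488 CPM, a ratio of 2.34 (1.87 to 2.96). Without hashtag 4 of experiment 2 these were 3.06 and 0.823. Prg3 alone was at least 2-fold lower, at 1.49 against 3.62 CPM, a ratio of 0.411 (0.361 to 0.467), against 1.23% of genes. It was 0.763 without hashtag 7 of experiment 1 and 0.160 without hashtag 5 of experiment 2. Cpa3 was at 114.9 against 153.9 CPM, a ratio of 0.746 (0.735 to 0.759), and Mcpt8 at 82.2 against 54.3 CPM, a ratio of 1.51 (1.48 to 1.55). The median ratio was 1.32 over the 10 genes and 0.931 over all genes.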

How the data were processed

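For each experiment 2 kinds of library were read, made from the same pooled cells: messenger RNA and hashtag oligonucleotides. The deposited tables hold raw UMI counts per gene and barcode and raw hashtag counts per barcode. Cell Ranger 3.0.0 and the builds mm10 and GRCm38 are named in the submitters' processing notes, with no role, and how the deposited barcodes were chosen is not given in the sources used here. Barcodes with at least 500 genes, under 10% mitochondrial UMIs and a top hashtag of at least 50 counts and 3 times the next were used, and the others were kept for the closing section. No deposited hashtag column was left unused.

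Counts were summed per hashtag and scaled to CPM with Python 3.11.15, pandas 2.3.3 and scipy 1.17.1, with exact Poisson intervals for levels, Clopper-Pearson intervals for shares and exact conditional intervals for ratios. All cover counting error only. No group is known to hold more than 1 sample, so no test was made. A gene at 0 is limited to what 3 UMIs would give. Shares of cells with a UMI were taken after each cell was drawn down to 10000 UMIs, which left out 573 and 589 shallower cells. B-lineage and stromal cells had at least 5 UMIs over at least 3 listed genes, and T-lineage cells had Bcl11b and at least 3 listed genes. The doublet caller Scrublet (scanpy 1.11.5) called 1 and 0 cells, so its threshold had not worked, no cell was removed as a doublet, and the top 5% of its scores were left out as an alternative. Steps across all genes were checked on simulated data.

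The members and lists were chosen with earlier results of these data known, and the 16 stage genes after the data were seen. Outside the 10 members, at most 12 listed genes were named, those highest in granule-high cells of each list, and likeness was named only at r of at least 0.3 in both experiments. Alternatives covered the hashtag rule (HTODemux of Seurat 5.3.0, and a 5-fold rule), the cell filter, size factors (edgeR 4.0.16 and DESeq2 1.42.0, scaling only), thresholds, single cells and single hashtags.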

Additional observations from a re-analysis of the deposited data

Results flagged for a closer look

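Of 22 values examined across both experiments, 7 were flagged, all in experiment 2. In each, 1 hashtag stood apart from its nearest neighbour by more than Dixon's 95% critical share of the range over 8 hashtags. Chance flags about 1 in 20 such values if they are independent and normally distributed. Here the granule-high share is built from the same genes and some sums rest mostly on 1 cell, so that rate does not apply. The critical share served only as a flag, and no conclusion is drawn from the number flagged. Hashtag 4 gave 4 of the 7 flagged values: Mcpt1 at 109 CPM (next 47.4), Prss34 at 355 CPM (next 93.3), Fcer1a at 7.00 CPM (next 1.12) and the share of granule-high cells at 2.91% (next 1.32%). Hashtag 5 gave Prg2 at 71.3 CPM (next 20.8) and Prg3 at 7.98 CPM (next 2.02), where the richest cell for each gene held 1695 of 2038 and 181 of 228 UMIs. Hashtag 6 gave Hdc at 24.4 CPM (next 10.1), from 152 cells with a UMI.

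Barcodes without a single clear hashtag, which the comparisons did not use, also carried these genes. The 10 genes summed to 309.9 CPM (302.8 to 317.1) in the 535 such barcodes of experiment 1 and to 360.8 CPM (356.1 to 365.5) in the 1879 of experiment 2, against 252.8 and 306.2 CPM in the cells used. Of them, 7 (1.31%) and 29 (1.54%) were granule-high.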

How the results depend on the processing

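In experiment 1 the count of genes at least 4-fold apart between hashtags, 2, was 1 without the 5 richest barcodes of each hashtag, 0 after thinning to 10000 UMIs, and 1 to 2 when each hashtag was left out. Its count of genes with at least 50% of UMIs in 1% of cells, 7, was 4 after thinning. Thinning lowers the UMIs behind the minimums, and Hdc of experiment 1 no longer met the one for hashtag ratios. Mcpt8 still met it, but its ratio was 3.96 after thinning, just under 4. In experiment 2 the 4 genes 4-fold apart became 8 with a minimum of 3 UMIs and stayed at 4 without each hashtag. Outside the granule-high cells of experiment 2, the ratios of Mcpt8 and Prss34 were under 4, at 3.77 and 1.57. Those of Cpa3 and Hdc were 6.76 and 16.3 there. The granule-high cut uses the UMIs of these same genes and takes out cells rich in them, so these ratios are no independent check. The granule-high share of experiment 1, 0.830%, was 1.88% over every deposited barcode with a hashtag call, 2.34% at a threshold of 0.1%, 0.330% at 0.5% and 0.386% without Cpa3. That of experiment 2, 0.864%, was 2.22% and 0.648% at those thresholds. The 3 genes 2-fold apart between experiments became 5 with HTODemux, 5 with a stricter cell filter (1000 genes, 5% mitochondrial UMIs), 5 without the 5 richest barcodes and 6 after thinning, and 2 to 5 without single hashtags. Why the other values moved was not tested. Without hashtag 4 of experiment 2, the ratios between experiments of Fcer1a (2.34), Mcpt1 (1.91) and Ms4a2 (1.13) turned to 0.823, 0.814 and 0.791. Those of Hdc (1.13), Prg2 (1.02) and Mcpt4 (1.67) turned to 0.767, 0.298 and 0.976 without hashtags 6, 5 and 8. Leaving out barcodes of over 10000 tags, chosen after seeing the data, moved none of these results past its limit. Ratios between hashtags had no value for Mcpt1, Mcpt4, Prg2, Prg3, Ms4a2 and Fcer1a, and in experiment 1 for Prss34, whose lowest hashtag had under 10 UMIs. No paired analysis was possible because no hashtag is tied to a condition or a replicate, and no result comes from a test.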
